A study of Mus musculus with 15 samples.

Results

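The genes of 8 enzymes that build heme were followed across 15 arrays: Alas1, Alas2, Alad, Uros, Urod, Cpox, Ppox and Fech. They were chosen by name, through the probes annotated to their symbols, and took 17 of the 45281 probes on each array. Hydroxymethylbilane synthase, the enzyme between Alad and Uros, was not analysed here. The brightest probe of each of the 8 genes stood above background on all 15 arrays. Total RNA came from 3 groups of 5 samples each: tumors of WD SW-fed mice, liver beside those tumors in the same 5 mice (4N, 4R, 5N, 5R and 6L), and liver of 5 CD NW-fed mice (1L, 1R, 2L, 2N and 3N). All were male mice of the stable cross 129S1/SvImJ;C57Bl/6J (129/B6), with no engineered allele or drug, placed on diet as young adults and sampled after 52 weeks. WD SW is a high-fat, cholesterol-containing Western diet with fructose and glucose in the drinking water, and CD NW is chow with plain water. The WD SW livers all came from tumor-bearing mice, so diet and the presence of a tumor cannot be told apart where they are set against CD NW livers.

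Heme is an iron-bearing ring that is made partly in mitochondria and partly in the cytosol. ALA synthase joins glycine to succinyl-CoA in the first and rate-limiting step. Alas1 encodes the form found in most tissues, which hepatocytes use to supply their cytochromes P450 and which heme itself holds down, and Alas2 encodes the form of red cell precursors, which supplies hemoglobin. Alad then makes the pyrrole porphobilinogen, Uros closes the ring and Urod trims its side chains in the cytosol. Cpox, Ppox and Fech return the pathway to the mitochondrion, and Fech, ferrochelatase, puts in the iron.

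Levels are log2 of normalised probe signal, and levels of different genes were not set against each other because each depends on its own probe. The number of arrays limits the precision. Some arrays stood apart in ways that touch the results. Glul, a gene of hepatocytes around the central vein and of liver tumors, had a level of 11.62 in the liver of WD SW-fed mouse 5R, while the other WD SW livers lay between 8.89 and 10.34 and tumors between 12.12 and 12.68. Arntl, the core clock gene also called Bmal1, was highest in liver and tumor of mouse 6L and in the CD NW livers of mice 1L and 1R. The sources used here do not give the time of day at which tissue was collected. All 9 hepatocyte markers with a probe were above background on all 15 arrays.

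In WD SW livers, Alas2 fell and none of the other 7 enzymes passed the test. Across all genes tested against CD NW livers, 9.78% of 8429 passed an adjusted p of 0.05, and among the 8 enzymes 1 did, in the direction in which 3.7% of all genes passed. In tumors set against WD SW livers none of the 8 enzymes passed, against 4.01% of 8674 genes, and none had an unadjusted p under 0.05, which 19.3% of all genes had (limma). In tumors set against CD NW livers, 2 of the 8 enzymes passed, Alas1 higher and Alas2 lower, against 25.1% of 8352 genes (12.3% higher and 12.8% lower). Both comparisons with CD NW livers use the same 5 control arrays. The median log2 fold change of the 8 enzymes was -0.14 in WD SW livers (-0.05 over all genes tested), 0.12 in tumors against WD SW livers (0.00 over all genes) and -0.05 in tumors against CD NW livers (-0.04 over all genes).

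**Figure D1:**
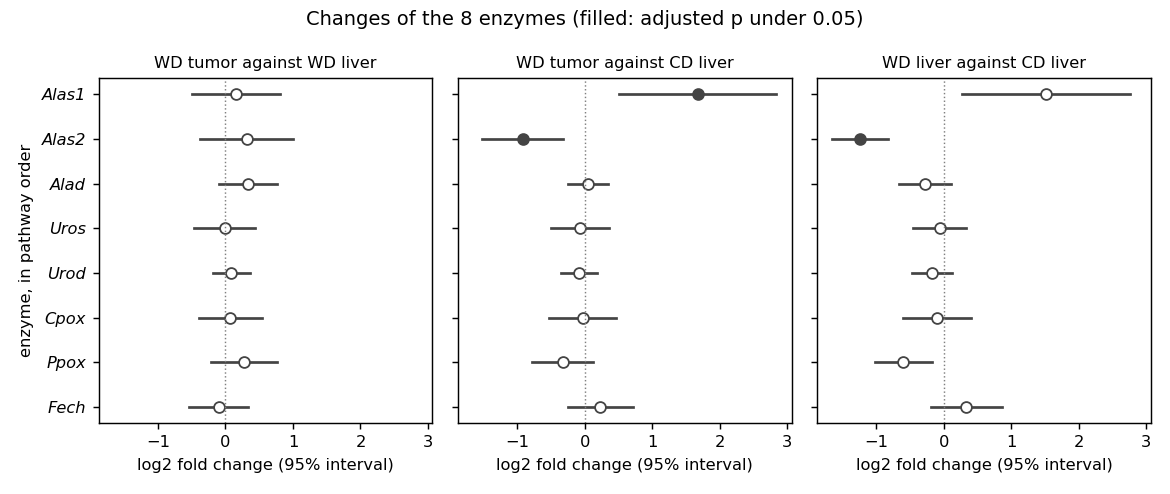
Log2 fold change of each of the 8 enzymes, in pathway order from top to bottom, with its 95% confidence interval (horizontal lines), in 3 comparisons of 5 against 5 arrays. Filled points passed an adjusted p of 0.05; only Alas1 at 1.67 and Alas2 at -0.92 in tumors against CD NW livers, and Alas2 at -1.24 in WD SW livers against CD NW livers, are filled.

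Alas1 was high in every sample of the WD SW-fed mice and split among the controls. Its level in tumors of mice 4N, 4R, 5N, 5R and 6L was 14.66, 14.85, 14.02, 14.07 and 13.69. In the WD SW livers of the same mice it was 14.69, 14.34, 13.95, 14.38 and 13.15. In the CD NW livers of mice 1L, 1R, 2L, 2N and 3N it was 11.22, 11.59, 11.98, 13.99 and 14.15. Controls 1L, 1R and 2L lay below every other array, while controls 2N and 3N lay within the range of the WD SW livers, so the groups overlapped. The range within CD NW livers, 2.93 on the log2 scale, was the widest of any of the 8 enzymes in any group. The log2 fold change in WD SW livers was 1.52 (standard error 0.57, 2.86-fold, 95% interval 1.21 to 6.75), and it did not pass adjustment over all genes (adjusted p = 0.117). The log2 fold change in tumors against CD NW livers was 1.67 (standard error 0.54, 3.19-fold, 95% interval 1.42 to 7.17) and passed (adjusted p = 0.0394). Between tumors and WD SW livers the log2 difference was 0.16 (standard error 0.30, adjusted p = 0.835).

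The call in tumors against CD NW livers depended on single arrays. It was lost when control 1L (log2 fold change 1.33, adjusted p = 0.0927), control 1R (1.42, adjusted p = 0.0957) or control 2L (1.52, adjusted p = 0.093) was left out. It was also lost without the tumor of mouse 4N (1.57, adjusted p = 0.0789), 4R (1.53, adjusted p = 0.0901), 5N (1.73, adjusted p = 0.0615) or 5R (1.72, adjusted p = 0.0546). Without control 3N, one of the high controls, the difference in WD SW livers passed (1.91, adjusted p = 0.0463).

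**Figure D2:**
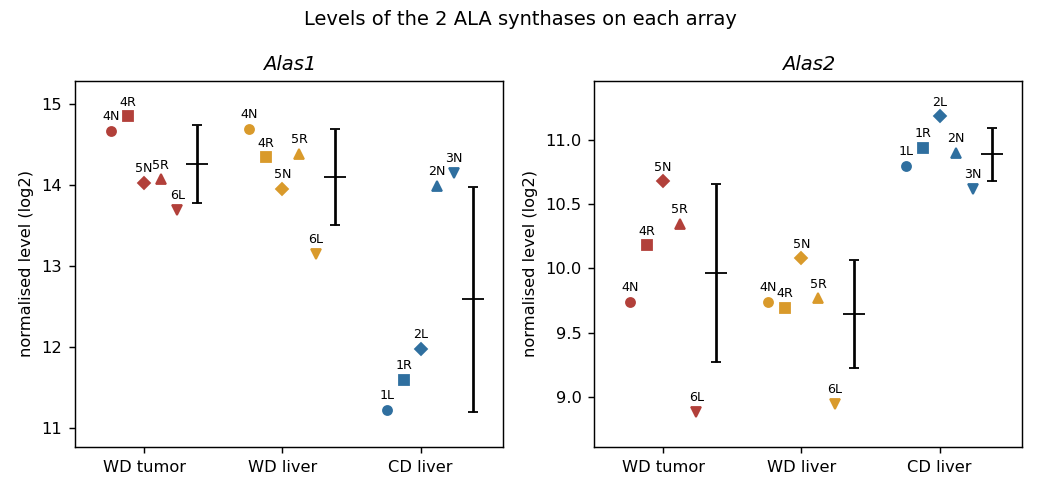
Normalised log2 levels of Alas1 (left) and Alas2 (right) on each array, named by mouse, with the group mean and SD (n = 5) beside the points; tumors and WD SW livers with the same name are from 1 mouse. Alas1 is below 12 in controls 1L, 1R and 2L and above 13 on all other arrays, and all 5 CD NW livers lie above all 5 WD SW livers for Alas2.

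Alas1 lies on mouse chromosome 9, and the RefSeq promoter table (build GRCm38.p6) gives it 2 windows, each running from 250 bases before to 50 bases after an annotated start. The stretch below is shown because Alas1 is known as a target of NRF1, a factor that acts with PGC-1 alpha on mitochondrial genes. It lies on the minus strand, and in it the letters GCGCATG, a part of the NRF1 site, occur on both strands and overlap (capitals).
Alas1 chr9:106247906-106247935: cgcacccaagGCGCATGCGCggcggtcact
These letters were chosen after the windows had been seen, and 3.91% of 32851 promoter windows of this length hold them on either strand. The shorter core TGCGCA, held by 7.76% of windows, was in neither Alas1 window and was found in that of Cpox. Of the 9 measured genes known to act on Alas1 transcription, none passed in any of the 3 comparisons. Of all genes tested, 9.78% passed in WD SW livers, 4.01% in tumors against WD SW livers and 25.1% in tumors against CD NW livers. Ppargc1a, which encodes PGC-1 alpha, had a log2 fold change of 0.00 in WD SW livers (standard error 0.35) and -0.27 in tumors against CD NW livers. Nr1d1, a clock repressor that lowers Alas1 through PGC-1 alpha, had a log2 fold change of -1.58 in WD SW livers (adjusted p = 0.113), with 3 of 5 WD SW livers above background. The log2 fold changes in WD SW livers were -0.29 for Nrf1, 0.66 for Foxo1 and -0.62 for Nr1i3, the xenobiotic receptor CAR, and none of these passed.

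Several clock genes, examined after the Alas1 levels had been seen, differed between arrays along with Alas1. Per2, a clock gene of the negative arm, had a level of 10.21, 11.01, 10.77, 10.65 and 8.95 in tumors of mice 4N, 4R, 5N, 5R and 6L. In the WD SW livers of these mice it was 10.28, 10.75, 10.42, 10.33 and 8.92. In the CD NW livers of mice 1L, 1R, 2L, 2N and 3N it was 7.76, 8.43, 9.11, 10.10 and 9.56. Its lowest levels were thus in the 3 controls that were lowest for Alas1 and in both samples of mouse 6L, whose tumor and liver were also the lowest for Alas1 in their groups. Arntl ran the other way, at 8.51 in the tumor and 7.95 in the liver of mouse 6L, against 4.72 to 5.89 in the other samples of WD SW-fed mice. In CD NW livers Arntl was 8.47 and 8.56 in mice 1L and 1R, and 5.43 to 6.40 in the other 3, with 8 of 15 arrays above background. Control 2L broke the pattern for Dbp, a clock output gene, with a level of 12.31 beside an Alas1 level of 11.98.

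Over the 15 arrays Pearson's r with Alas1 was 0.87 for Per2, 0.83 for Per1, 0.88 for Usp2, 0.68 for Dbp and -0.74 for Arntl, and with the group means removed 0.78, 0.86, 0.83, 0.71 and -0.69. For the other 7 clock genes it was 0.81 for Noct, 0.73 for Ciart, 0.61 for Nr1d2, 0.61 for Tef, 0.305 for Per3, -0.16 for Nr1d1 and -0.35 for Clock, and with the group means removed 0.95, 0.91, 0.75, 0.73, 0.52, 0.29 and -0.33. Nr1d1, Clock and Per3 thus followed Alas1 least. Per3 was above background in 3 of 5 tumors, 3 of 5 WD SW livers and 2 of 5 CD NW livers, so its r is not well measured. Of 5 CD NW livers, 3 were above background for Usp2 and for Ciart, and 4 for Noct and for Per1. The correlations are descriptions: the arrays share mice, diet and normalisation. None of the 12 clock genes measured in WD SW livers and CD NW livers passed between them, where 9.78% of all genes did. Leaving out the arrays of mice 1L, 1R and 6L, a choice made after seeing the data, gave Alas1 a log2 fold change of 0.97 in WD SW livers (adjusted p = 0.349) and 1.03 in tumors against CD NW livers (adjusted p = 0.2). The part of the clock genes, and of the time of collection, in the Alas1 result was not tested.

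**Figure D3:**
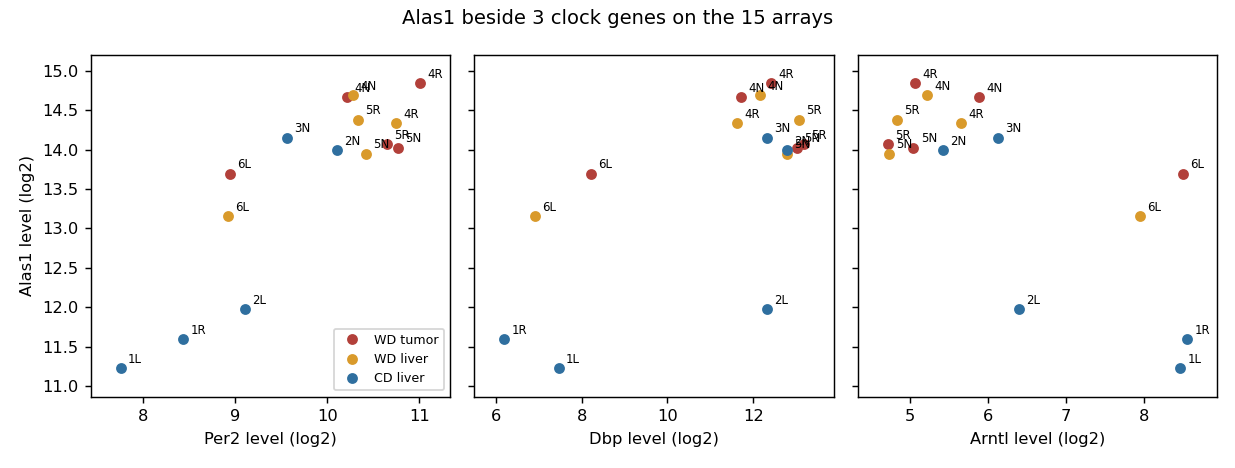
Log2 level of Alas1 (vertical axis) against that of Per2, Dbp and Arntl (horizontal axes) on the 15 arrays, coloured by group and named by mouse. Arrays of mice 1L, 1R and 6L have the lowest Dbp, at 6.20 to 8.22, and the highest Arntl, at 7.95 to 8.56, and control 2L has a low Alas1 level of 11.98 beside a Dbp level of 12.31.

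Genes whose levels most resembled those of Alas1 were sought among the 8989 genes above background on at least 5 arrays. Coq10b, a coenzyme Q binding protein of mitochondria, came first (r = 0.96, and 0.93 with the group means removed). Its level was 7.81, 8.04 and 8.75 in controls 1L, 1R and 2L and 10.40 and 10.05 in controls 2N and 3N, the same split as for Alas1. Ripk4, a kinase (0.90), Mknk2, a kinase of translation factor eIF4E (0.90), Nampt, the rate-limiting enzyme of NAD salvage (0.90), and Ube2g1, a ubiquitin-conjugating enzyme (0.90), followed. Id2, an inhibitor of helix-loop-helix factors, was the most opposite (r = -0.92), with levels of 11.57 to 11.91 in controls 1L, 1R and 2L and 8.81 and 9.27 in controls 3N and 2N.

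Alas2 was lower in WD SW livers than in CD NW livers, and the controls lay within a range of 0.56 on the log2 scale. Its level in tumors of mice 4N, 4R, 5N, 5R and 6L was 9.74, 10.18, 10.68, 10.34 and 8.89. In the WD SW livers of these mice it was 9.74, 9.70, 10.08, 9.77 and 8.95. In the CD NW livers of mice 1L, 1R, 2L, 2N and 3N it was 10.80, 10.94, 11.18, 10.90 and 10.62. Every WD SW liver lay below every CD NW liver, a pattern that 4.22% of all genes tested showed in this direction and 10.1% in either. The log2 fold change in WD SW livers was -1.24 (standard error 0.19, adjusted p = 0.00336), or 2.36-fold lower, and it passed in all 22 alternatives, with values of -1.35 to -1.06. In this bulk RNA, fewer cells that express a gene and less of its RNA per cell cannot be told apart.

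In tumors Alas2 was also lower than in CD NW livers (log2 fold change -0.92, standard error 0.28, adjusted p = 0.0302), but the tumor of mouse 5N overlapped the controls. This call was lost when control 1L (-0.94, adjusted p = 0.0544), 1R (-0.91, adjusted p = 0.0611), 2L (-0.85, adjusted p = 0.075) or 2N (-0.92, adjusted p = 0.0575) or the tumor of mouse 4N (-0.86, adjusted p = 0.061) was left out. It was lost too without mice 1L, 1R and 6L together (-0.66, adjusted p = 0.108), whereas the fall in WD SW livers was then -1.08 (adjusted p = 0.034). Between tumors and WD SW livers the log2 difference was 0.32 (standard error 0.32, adjusted p = 0.644). Mouse 6L had the lowest Alas2 level in both groups of WD SW-fed samples.

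Alas2 lies on the X chromosome and has 1 window in the promoter table. The 250 bases before its start are shown because Alas2 is the erythroid form and is known as a target of GATA1, with the letters AGATAA, here on the opposite strand and beginning at position -86 from the start, in capitals.
Alas2 chrX:150547167-150547416: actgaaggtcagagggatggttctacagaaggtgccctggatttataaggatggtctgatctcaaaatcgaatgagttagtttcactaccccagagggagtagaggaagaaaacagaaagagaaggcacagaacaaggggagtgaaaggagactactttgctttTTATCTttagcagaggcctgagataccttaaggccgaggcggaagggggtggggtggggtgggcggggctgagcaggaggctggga
Of all promoter windows, 11.2% hold AGATAA on either strand, and among the 7 enzymes with a window those of Alas2 and Cpox did. The letters CACACCC, bound by the erythroid factor KLF1, were in 7.95% of all windows and in that of Cpox but not in that of Alas2. Only these exact letters were searched, so their absence does not show that KLF1 cannot bind there. Alas2 mRNA is also known for an iron responsive element near its start, and the loop letters CAGTGN, found in 34.6% of windows on the forward strand, were not in the Alas2 window.

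The hemoglobin genes did not pass the test where Alas2 fell, and the difference from Alas2 was not tested. Hba-a1, Hbb-bs and Hbb-bt, whose near-identical copies may share probes, had log2 fold changes of 0.08, 0.26 and 0.30 in WD SW livers and 0.21, 0.54 and 0.50 in tumors against CD NW livers, none past the test. Of 17 erythroid markers, 12 had a probe. Gata1, Epb42, Ermap and Rhd were above background on no array, so the erythroid factor and several red cell membrane genes were not measurable. The 12 summed to a log2 level of 13.54 to 15.87 in tumors, 13.87 to 15.10 in WD SW livers and 13.65 to 14.69 in CD NW livers. Levels were added on the linear scale, so Hba-a1, Hbb-bs and Hbb-bt, with group means of 12.53 to 13.28, made up most of this sum. The other measured markers had group means of 5.07 to 7.21. Slc4a1, the band 3 anion exchanger of red cells, passed as higher in WD SW livers (fitted log2 fold change 2.08, adjusted p = 0.0377) and in tumors against CD NW livers (2.14, adjusted p = 0.0329), but only 1 of 5 CD NW livers was above background for it, so the size of the change is not well measured. Car1, a red cell carbonic anhydrase, passed as lower in tumors against CD NW livers (fitted log2 fold change -1.15, adjusted p = 0.00209), with 1 of 5 tumors above background, and had -0.86 in WD SW livers (adjusted p = 0.0705). Klf1 passed as lower in tumors against CD NW livers (-0.69, adjusted p = 0.0445), with 3 of 5 tumors above background, and had -0.37 in WD SW livers (adjusted p = 0.367). Of the 7 erythroid markers measured in tumors and CD NW livers, 1 thus passed as higher and 2 as lower, all 3 near background in a group. Of all genes tested there, 12.3% passed as higher and 12.8% as lower. The part of red cell content in the Alas2 result was not tested.

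Most of the macrophage markers measured stood higher in WD SW livers and in tumors than in CD NW livers, while Alas2 stood lower. Of 9 measured, 8 rose in WD SW livers, with a median log2 fold change of 2.69, and 8 rose in tumors against CD NW livers, with a median of 1.52. Of all genes tested, 6.07% and 12.3% rose in these comparisons. The other marker measured, Clec4f, passed in neither comparison and averaged 7.51 in tumors, 9.62 in WD SW livers and 8.13 in CD NW livers. Cd163, a macrophage receptor kept in another list, passed as lower in both, with 1 of 5 WD SW livers and no tumor above background. Of the 12 markers on the list 11 had a probe, and 1 was above background on no array. Their summed log2 level was 10.40 to 11.96 in tumors, 11.26 to 14.15 in WD SW livers and 9.81 to 10.72 in CD NW livers. In tumors against WD SW livers none of the 9 passed, where 4.01% of all genes did. Their log2 fold changes there ran from -2.11 to -0.92, with a median of -1.1, while that of Alas2 was 0.32. Csf1r, the receptor that macrophages need, reached 10.26 in the WD SW liver of mouse 6L, where Alas2 was 8.95, and lay between 7.34 and 9.20 in the other WD SW livers. The genes most opposite to Alas2 over the 15 arrays were Snx10, Lilra6, Spic, Cklf and Lst1 (r = -0.90, -0.90, -0.90, -0.90 and -0.88, and -0.77, -0.79, -0.75, -0.77 and -0.70 with the group means removed). Spic, the transcription factor of heme-recycling macrophages, was at 5.78 to 7.81 in tumors and 5.90 to 7.68 in WD SW livers, against 4.32 to 5.23 in CD NW livers. Spic, Lilra6 and Cklf were above background in none of the 5 CD NW livers, so their levels there have no order. Lst1 was above background in 2 of 5 CD NW livers. These genes thus entered the search through the samples of WD SW-fed mice, and their r rests in part on arrays at background. The part of macrophage content in the Alas2 result was not tested.

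The genes most like Alas2 were Rbfa, Uqcrc1, Nipsnap1, Mocs1 and Akr7a5 (r = 0.89, 0.88, 0.88, 0.88 and 0.88, and 0.78, 0.88, 0.86, 0.72 and 0.84 with the group means removed). Rbfa encodes a mitochondrial ribosome assembly factor, Uqcrc1 a core protein of the heme-bearing respiratory complex III, and Mocs1 an enzyme of molybdenum cofactor synthesis. Uqcrc1 was at 10.71 to 11.41 in tumors and 10.85 to 11.34 in WD SW livers, against 11.28 to 11.66 in CD NW livers. No erythroid marker was among the 5.

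The change of Alas1 was compared with that of each other enzyme through the difference of their log2 levels on each array. In WD SW livers against CD NW livers, Alas1 minus Alas2 was higher by 2.75 on the log2 scale, the groups did not overlap, and a two-sided exact permutation test gave p = 0.00794, the smallest that its 252 arrangements allow. Of 21 such differences, for 7 enzymes in 3 comparisons, none passed adjustment over all 21, and the smallest adjusted p was 0.111 (exact permutation test). A single difference at the smallest possible p could not pass over 21 tests, so the lack of calls does not show equal change. In WD SW livers the difference between Alas1 and a later enzyme was 1.19 with Fech, 1.58 with Uros, 1.62 with Cpox, 1.69 with Urod, 1.80 with Alad and 2.12 with Ppox. The 7 differences in tumors against CD NW livers lay between 1.44, with Fech, and 2.59, with Alas2. In tumors against WD SW livers they lay between -0.17 and 0.25, and the permutation test there did not pair samples by mouse. In an exact sign-flip test paired by mouse none of these 7 passed (smallest adjusted p = 0.803). Its 32 arrangements allow no p under 0.0625. Leaving out control 3N let 11 of the 21 pass, 6 in WD SW livers and 5 in tumors, all against CD NW livers.

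None of the 6 later enzymes passed in any comparison. Their ranges within a group ran from 0.22 on the log2 scale, for Urod in tumors, to 1.10, for Fech in CD NW livers. Ppox, protoporphyrinogen oxidase of the inner mitochondrial membrane, came closest. Its level in tumors of mice 4N, 4R, 5N, 5R and 6L was 7.60, 7.34, 7.71, 8.19 and 7.19. In the WD SW livers of these mice it was 7.04, 6.95, 7.40, 7.79 and 7.48. In the CD NW livers of mice 1L, 1R, 2L, 2N and 3N it was 8.23, 7.87, 8.16, 7.49 and 7.91. Control 2N and the WD SW liver of mouse 5R kept the groups from separating. The log2 fold change in WD SW livers was -0.60 (standard error 0.19, adjusted p = 0.0735), and it passed without the arrays of mouse 5R (-0.71, adjusted p = 0.0355). Tumors gave -0.33 against CD NW livers (adjusted p = 0.27).

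Alad, porphobilinogen synthase, averaged 12.71 ± 0.25 in tumors, 12.38 ± 0.39 in WD SW livers and 12.66 ± 0.17 in CD NW livers (SD, n = 5 each). The WD SW livers of mice 4N, 4R and 6L were lower than every CD NW liver, that of 5N lay within the range of the controls and that of 5R, at 12.95, was above it. The log2 fold change was -0.28 in WD SW livers (95% interval -0.67 to 0.10). Urod, uroporphyrinogen decarboxylase, averaged 12.26 ± 0.10 in tumors, 12.17 ± 0.21 in WD SW livers and 12.34 ± 0.22 in CD NW livers (SD, n = 5 each), and its log2 fold change in WD SW livers was -0.17 (95% interval -0.47 to 0.12). Uros, uroporphyrinogen III synthase, averaged 8.16 ± 0.36, 8.17 ± 0.31 and 8.24 ± 0.29 in tumors, WD SW livers and CD NW livers (SD, n = 5 each). The log2 fold change of Uros in WD SW livers was -0.06 (95% interval -0.46 to 0.33).

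Cpox, coproporphyrinogen oxidase, averaged 6.75 ± 0.33 in tumors, 6.67 ± 0.35 in WD SW livers and 6.77 ± 0.42 in CD NW livers (SD, n = 5 each), and its log2 fold change in WD SW livers was -0.10 (95% interval -0.60 to 0.40). Fech, which completes heme, averaged 6.62 ± 0.24 in tumors, 6.72 ± 0.36 in WD SW livers and 6.39 ± 0.46 in CD NW livers (SD, n = 5 each). Its log2 fold change was 0.33 in WD SW livers (95% interval -0.20 to 0.86) and 0.23 in tumors against CD NW livers (95% interval -0.25 to 0.71). The lowest Fech levels were 5.89 and 6.01 in controls 1R and 2L, which were also low for Alas1. Control 1L, the lowest for Alas1, had a Fech level of 6.43, above the 6.23 in the tumor of mouse 4N. Over the 15 arrays r between Fech and Alas1 was 0.67 (0.62 with the group means removed). For Cpox and Alas1 it was 0.43 (0.67 with the group means removed). Second probes above background on at least 5 of the arrays compared existed for Uros and Fech. In WD SW livers they gave log2 fold changes of 0.02 and 0.12, also not past the test. The second Fech probe was at 5.95, 5.93 and 5.87 in controls 1L, 1R and 2L. It was at 4.91 and 5.52 in controls 2N and 3N, so it did not share the split of Alas1.

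**Figure D4:**
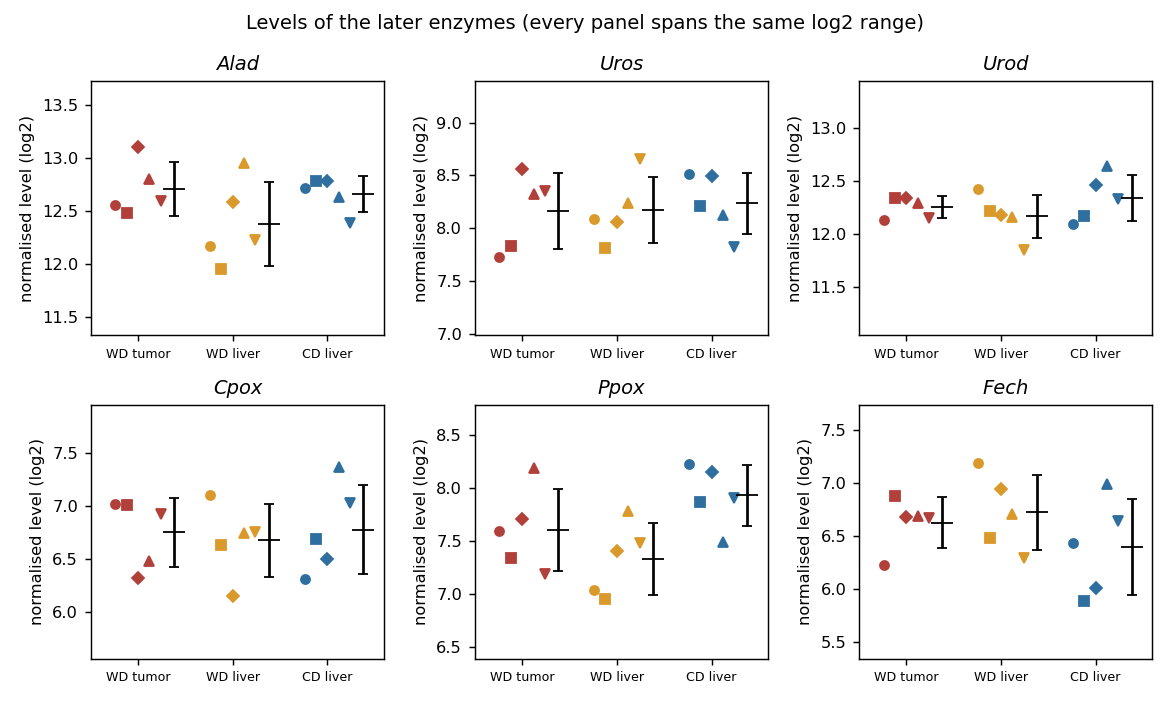
Normalised log2 levels of the 6 later enzymes on each array (points; 1 symbol per mouse) in tumors, WD SW livers and CD NW livers, with the group mean and SD (n = 5) beside them, every panel spanning the same log2 range. The groups overlap in every panel; the largest gap between means is that of Ppox, at 7.33 in WD SW livers and 7.93 in CD NW livers.

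The windows of the later enzymes were searched for the E-box CACGTG as well, the letters that the clock factors BMAL1 and CLOCK bind. It was in 7.15% of all promoter windows, in neither Alas1 window, and in windows of Alad, Urod and Uros. The 2 sites of Alad and that of Urod, all on the minus strand of chromosome 4, are shown with the E-box in capitals.
Alad chr4:62519918-62519947: gccccgccccCACGTGggcttgcgctttta
Alad chr4:62520149-62520178: tccgaatgccCACGTGgaccccctcgggcc
Urod chr4:116994443-116994472: ctggatcggtCACGTGgttctcaatatggc
Over the 15 arrays r with Alas1 was -0.29 for Alad, 0.22 for Urod and -0.59 for Uros. With the group means removed it was -0.30, 0.65 and -0.71. A match to these letters says nothing of what binds there.

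Tumor and liver of 1 mouse could be set side by side, and no enzyme moved one way in all 5 mice. Alad was higher in the tumor than in the liver of 4 of 5 mice (mean log2 difference 0.33 ± 0.28, SD), the exception being mouse 5R at -0.15. Ppox was higher in 4 of 5 (0.27 ± 0.33), with mouse 6L at -0.29, and Urod in 4 of 5 (0.09 ± 0.22), with mouse 4N at -0.29. Alas2 was higher by 0.48, 0.60 and 0.58 in the tumors of mice 4R, 5N and 5R and differed by -0.00 and -0.06 in mice 4N and 6L. Alas1 was higher by 0.51 and 0.54 in the tumors of mice 4R and 6L, lower in that of mouse 5R (-0.31), and differed by 0.07 and -0.03 in mice 5N and 4N. Fech ranged from -0.96 in mouse 4N to 0.39 in mouse 4R. With the mouse as a replicate block, 907 genes passed in place of 348 and still none of the 8 enzymes did, the lowest adjusted p being 0.137 for Alad.

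Few genes of the steps around the pathway passed the test. Of all genes tested, 9.78% passed in WD SW livers, 4.01% in tumors against WD SW livers and 25.1% in tumors against CD NW livers. None of the 5 measured genes that supply ALA synthase with succinyl-CoA or glycine passed in any comparison. Nor did any of the 10 measured on a list for iron-sulfur cluster assembly, which Fech needs for its own cluster. That list also held Aco1 and Ireb2, which are not themselves assembly genes. Aco1 had a log2 fold change of -0.53 in tumors against CD NW livers (adjusted p = 0.0664). Of 11 measured genes of mitochondrial transport and ALA synthase turnover none passed in WD SW livers, and Tspo, a porphyrin-binding protein of the outer membrane, alone rose in tumors against CD NW livers (log2 fold change 0.68, adjusted p = 0.0107). Slc25a38, the glycine carrier, had log2 fold changes of -0.14 in WD SW livers and -0.26 in tumors against CD NW livers. Slc25a37, mitoferrin 1, which brings iron into mitochondria, had 0.01 and 0.34. Clpx, whose product turns over ALA synthase, had -0.71 and -0.49, and none of these passed.

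Several genes that break down and carry heme changed. Hmox1, heme oxygenase 1, which opens the heme ring, was at 7.02, 8.70, 6.90, 6.19 and 8.25 in tumors of mice 4N, 4R, 5N, 5R and 6L. It was at 7.16, 7.67, 7.58, 6.73 and 8.21 in their livers, against 5.58, 5.59, 4.95, 4.70 and 5.90 in CD NW livers. Every sample of WD SW-fed mice thus lay above every control. Of all genes tested, 5.88% lay above every control in all WD SW livers and 8.97% in all tumors. The fitted log2 fold change of Hmox1 in tumors against CD NW livers was 2.07 (adjusted p = 0.00465). Only 3 of 5 CD NW livers were above background for Hmox1, so the size of the change is not well measured. Of all genes tested, 6.07% rose and 3.7% fell in WD SW livers, and 12.3% rose and 12.8% fell in tumors against CD NW livers. Of 14 measured genes of this list, 1 rose and 2 fell in WD SW livers, and 5 rose and 3 fell in tumors against CD NW livers. Those that fell in WD SW livers were Cd163, the hemoglobin-haptoglobin receptor of macrophages (fitted log2 fold change -1.87, adjusted p = 0.0127, with 1 of 5 WD SW livers above background), and Slc46a1, a folate and heme carrier (-0.54, adjusted p = 0.0328). Against WD SW livers, tumors had more Blvrb, a biliverdin reductase (log2 fold change 1.19, adjusted p = 0.0263), and more Flvcr2, a carrier of the heme exporter family (1.96, adjusted p = 0.00469). No other gene of the 13 measured in that comparison passed.

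Heme proteins of hepatocytes changed in both directions. Of 21 measured heme proteins and their partners, none rose and 4 fell in WD SW livers, with a median log2 fold change of -0.47, and 6 rose and 7 fell in tumors against CD NW livers. The shares over all genes were 6.07% and 3.7% in WD SW livers, and 12.3% and 12.8% in tumors against CD NW livers. Cyp8b1, the sterol 12-alpha-hydroxylase of bile acid synthesis, fell by 1.70 in WD SW livers (adjusted p = 0.0188) and by 4.02 in tumors against WD SW livers (adjusted p = 0.0114). Cyp2f2, a P450 of hepatocytes around the portal vein, passed as lower in tumors against WD SW livers (fitted log2 fold change -4.50, adjusted p = 0.0405), with 3 of 5 tumors above background. In the same comparison Cyp3a11 (log2 fold change 2.07, adjusted p = 0.0285) and Cyp27a1 (0.70, adjusted p = 0.0362) rose. Against CD NW livers, Cyp2a5, a coumarin hydroxylase, rose by 2.01 in tumors (adjusted p = 0.000502), and Cyp3a25, a P450 of the drug-metabolising 3A family, fell by 1.18 (adjusted p = 0.00356). Beside these, 6 of 10 pericentral hepatocyte markers rose and 3 of 5 periportal markers, Cyp2f2 among them, fell in tumors against WD SW livers. Of all genes tested there, 1.96% rose and 2.05% fell. Summed log2 levels of the pericentral and periportal markers were 16.37 to 16.86 and 10.63 to 13.77 in tumors, against 15.23 to 16.42 and 14.20 to 15.34 in WD SW livers. The part of this shift in the P450 results was not tested, and none of the 8 enzymes of heme synthesis passed between the same samples.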

How the data were processed

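RNA of 15 tissue samples was measured on Illumina mouse BeadChips, 1 array each. The authors deposited probe signal intensities on a linear scale before normalization, used here, and processed intensities, whose method the sources used here do not give. Arrays were background corrected and quantile normalized together by the neqc function (offset 16, robust) of limma 3.58.1, run in R 4.3.3, and taken to log2. No control probes were given, so 1526 probes of chemosensory receptor genes (Olfr, Vmn1r, Vmn2r and Taar) stood in as negative controls and were kept out of tests. The detection p of a probe is the share of stand-ins at or above it, and a value under 0.01 counted as above background, as for 12293 to 15829 probes per array. Symbols came from the probe table through a RefSeq gene table of GRCm38.p6 (34885 probes with 1 symbol, 18 with several genes, 10378 with none), and the files name no genome build.

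The brightest probe stood for a gene if it was above background on at least 5 of the 10 arrays compared. Groups from the labels were compared in limma (lmFit, then eBayes with trend), with Benjamini-Hochberg adjustment over all genes tested and a threshold of 0.05. Alas1 minus each other enzyme was tested with a two-sided exact permutation test, and for tumors against WD SW livers also with an exact sign-flip test within mice. The method was tested on simulated arrays. P-values measure the spread between mice. The 8 enzymes and all gene lists were chosen with earlier results of these data known, and the clock list and the letters GCGCATG after values or windows had been seen. Named are the 8 enzymes, up to 4 genes per list with the smallest adjusted p, genes whose role bears on an enzyme, and the 5 genes most like Alas1 or Alas2. Csf1r, Glul, Clec4f, Cyp3a11, Cyp27a1, the clock genes and the genes most opposite to Alas1 or Alas2 were picked once their values were known.

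The labels take tumor and liver of 1 name from 1 mouse. Across 8989 genes, the deviations of each tumor from its group mean correlated with those of its own liver at r = 0.19 to 0.517, more than with any other liver. The comparison of tumors with WD SW livers had no mouse term unless stated. Alternatives were other background corrections (none, or normexp at an offset of 50), median scaling, the authors' processed intensities, other filters (none, or detection on all 10 arrays), other uses of probes (their mean, or each alone), 1 fit of all arrays, array weights, the mouse as a block, leaving out each array or mouse 5R, and, added after seeing the data, leaving out mice 1L, 1R and 6L. Figures were drawn with matplotlib 3.10.9.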

Additional observations from a re-analysis of the deposited data

How the results depend on the processing

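The fall of Alas2 in WD SW livers passed in all 22 alternatives, and in tumors against WD SW livers none of the 8 enzymes passed in any of 23, the mouse as a replicate block included (907 genes changed in place of 348). Array weights called 3 enzymes in WD SW livers: Alas2, Alas1 (2.0, adjusted p = 0.0343) and Ppox (-0.742, adjusted p = 0.0245). Leaving out mouse 5R called 2, Alas2 and Ppox (-0.714, adjusted p = 0.0355), while Alas1 did not pass (1.45, adjusted p = 0.163). In tumors against CD NW livers 1 enzyme was called under median scaling, where Alas2 lost its call (-0.81, adjusted p = 0.0566). Alas1 lost its call without the filter (1.67, adjusted p = 0.0592) and without mouse 5R (1.72, adjusted p = 0.0546), which also left 1 enzyme each. Without mice 1L, 1R and 6L both lost it (Alas1 at 1.03, Alas2 at -0.66), which left 0. The cause was not tested.

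Counts of genes changed in WD SW livers were 499 with detection on all 10 arrays and 185 without mice 1L, 1R and 6L. In tumors against WD SW livers they were 221 with detection on all 10 arrays, 544 with every probe, 681 with 1 fit of all arrays, 552 with array weights and 179 without mice 1L, 1R and 6L. In tumors against CD NW livers they were 3237 with every probe and 845 without mice 1L, 1R and 6L. The cause of these differences was not tested.

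Log2 fold changes near 0 changed sign. Under median scaling those of Uros and Cpox became 0.066 and 0.0226 in WD SW livers and 0.16 and 0.19 in tumors against CD NW livers, and in tumors against WD SW livers Uros became 0.0938, Fech 0.00272 and Alas1 minus Cpox -0.0349. Array weights gave Cpox 0.0269 in WD SW livers, and Uros 0.16 and Cpox -0.0222 in tumors against WD SW livers. The mean of a gene's probes gave Fech 0.0389 there. Without mouse 5R, Cpox was 0.0395 in tumors against CD NW livers, and Alas1 minus Alas2 and minus Ppox were 0.0201 and 0.033 in tumors against WD SW livers. Without mice 1L, 1R and 6L, Uros was 0.0611 and Alas1 minus Uros -0.00044 there.

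Leaving out 1 array at a time gave these ranges. In WD SW livers 471 to 850 genes and 1 to 2 enzymes passed, with Alas1 at 1.17 to 1.91, Uros at -0.184 to 0.0253, Cpox at -0.22 to 0.0448, and Alas1 minus Alas2 at 2.43 to 3.21. In tumors against WD SW livers 143 to 455 genes passed, with Alas1 at -0.0805 to 0.304, Uros at -0.112 to 0.109, Cpox at -0.0577 to 0.183, Fech at -0.204 to 0.0198, and Alas1 minus Alas2 at -0.319 to 0.0757, minus Alad at -0.378 to 0.0232, minus Uros at -0.19 to 0.357, minus Urod at -0.0865 to 0.188, minus Cpox at -0.18 to 0.27 and minus Ppox at -0.39 to 0.10. In tumors against CD NW livers 0 to 2 enzymes passed, with Alas1 at 1.33 to 2.06, Alas2 at -1.10 to -0.65, Alad at -0.0513 to 0.104, Uros at -0.176 to 0.033, Cpox at -0.15 to 0.12, and Alas1 minus Alas2 at 2.27 to 3.05. Of the 21 differences between Alas1 and another enzyme, 0 to 11 passed. Where only some arrays of a group were above background, as for Slc4a1 and Cd163, the size of a change is not well measured.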
